A study of Mus musculus with 6 samples.

Results

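The borders between the A and B compartments of control mouse embryonic stem cells were followed through knockdown of 2 chromatin remodellers. A border was a pair of adjacent 50 kb bins on 1 chromosome, of which 1 bin ranked above 0.5 (A) and the other at or below 0.5 (B), at the same position in both Control libraries. The members were thus chosen by the Control ranks. The rule found 1131 borders among 47982 pairs of adjacent bins, 556 that run from A to B along the chromosome and 575 that run from B to A. Their 2262 bins were drawn from 48009 bins with a rank in any library. For that reason the Control values at these borders describe the choice and were not tested.

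The libraries were Hi-C of E14 cells, a mouse embryonic stem cell line derived from a male and labelled wild type, taken 48 hours after transfection with esiRNA, which are pools of short interfering RNAs. The 6 libraries were Brg1KD (esiRNA against Smarca4, which encodes the ATPase BRG1), Ino80KD (esiRNA against Ino80) and Control (esiRNA against EGFP), with 2 libraries in each group. Replicate 1 of each group was 1 batch and replicate 2 the other. The labels do not state that replicates were separate cultures, and their spread may be technical. RNA was not measured in these files, so the knockdown itself could not be checked. No read numbers were given, so depth is unknown.

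In Hi-C, A and B are the chromosome domains that contact mainly others of their own kind. A is generally gene-rich and open, and B gene-poor, often at the nuclear lamina. The borders between them are where active and inactive chromatin meet. BRG1 is the motor of the BAF complexes and Ino80 that of the INO80 complex, and both move or eject nucleosomes. The files divide A and B into 8 ranked subcompartments, from B.2.2 as class 1 to A.1.1 as class 8, of which 4 lie on the A side.

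Start regions of genes at the borders differed in CpG content, counted as CG on either strand (the motif reads the same on both). The 250 bases upstream of the start sites in A-side border bins held a median of 13 CpG (726 promoters), against 3 in B-side border bins (318 promoters). In A-side border bins 63.4% of these promoters held 10 or more CpG, against 29.9% in B-side bins and 52.2% of all 16308 promoters. Away from the borders it was 64.3% in other A bins (median 14 CpG) and 20.4% in other B bins (median 2 CpG), so the contrast is not particular to the borders. The examples below are from the RefSeq promoters of GRCm38.p6, 5′ to 3′ on the strand of the gene, with each CpG in capitals. They were chosen because the results below turn on their borders. Klf4, a pluripotency factor, starts on the A side (chr4:55532476-55532725, minus strand, 32 CpG). Mrpl32, which encodes a mitochondrial ribosomal protein, starts on the A side of a border that moved in all 4 knockdown libraries (chr13:14613038-14613287, minus strand, 17 CpG). Elf5, a trophectoderm factor, starts on the A side (chr2:103411848-103412097, plus strand, 2 CpG). Pdgfra, a growth factor receptor of the primitive endoderm, starts on the B side (chr5:75152001-75152250, plus strand, 4 CpG).
Klf4: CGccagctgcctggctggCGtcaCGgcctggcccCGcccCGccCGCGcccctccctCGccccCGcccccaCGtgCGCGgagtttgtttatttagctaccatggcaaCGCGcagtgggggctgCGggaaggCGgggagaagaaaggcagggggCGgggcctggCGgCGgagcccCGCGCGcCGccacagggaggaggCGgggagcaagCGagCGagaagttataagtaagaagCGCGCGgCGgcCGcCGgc
Mrpl32: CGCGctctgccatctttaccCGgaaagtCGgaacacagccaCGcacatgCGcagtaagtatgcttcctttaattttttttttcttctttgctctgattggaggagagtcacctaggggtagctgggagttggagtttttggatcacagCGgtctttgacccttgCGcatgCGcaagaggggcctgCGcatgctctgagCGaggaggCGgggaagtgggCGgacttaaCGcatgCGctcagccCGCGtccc
Elf5: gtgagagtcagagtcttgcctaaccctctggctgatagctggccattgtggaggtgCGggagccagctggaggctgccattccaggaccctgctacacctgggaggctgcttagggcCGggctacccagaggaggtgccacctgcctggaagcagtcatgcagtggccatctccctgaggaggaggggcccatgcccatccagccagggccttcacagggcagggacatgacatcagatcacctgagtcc
Pdgfra: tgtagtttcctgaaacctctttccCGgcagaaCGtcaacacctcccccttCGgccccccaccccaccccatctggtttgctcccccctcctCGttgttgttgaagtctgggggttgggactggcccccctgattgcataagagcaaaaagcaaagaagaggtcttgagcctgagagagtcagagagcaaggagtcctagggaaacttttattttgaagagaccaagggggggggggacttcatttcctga

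In the controls the borders were mostly steps of several classes. The median step was 3 classes in Control replicate 1 and 4 classes in Control replicate 2. The step was at least 2 classes in both controls at 92.4% of borders and a single class at 26 of them (2.30%). The median uninterrupted run was 500 kb on the A side and 1100 kb on the B side. Just outside the rule, 497 positions were borders in Control replicate 1 alone and 553 in Control replicate 2 alone. Of the 497, both bins lay in A in the other control at 277 and in B at 217. Of the 553, both lay in A at 235 and in B at 314.

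Most borders stayed in the same place after either knockdown, and fewer stayed after Brg1 knockdown than after Ino80 knockdown. The position held at 840 of 1130 borders (74.3%) in Brg1KD replicate 1 and at 879 of 1131 (77.7%) in Brg1KD replicate 2. It held at 933 of 1131 (82.5%) in Ino80KD replicate 1 and at 964 of 1131 (85.2%) in Ino80KD replicate 2. Both Brg1KD libraries lay below both Ino80KD libraries. The means were 76.0% ± 2.39 in Brg1KD and 83.9% ± 1.94 in Ino80KD (SD, n = 2 each), a difference of -7.84 percentage points. The difference was -8.16 points within batch 1 and -7.52 points within batch 2. By exact permutation of the libraries, two-sided, p was 0.333, the smallest that 2 against 2 libraries allow. In all, 644 borders (57.0%) held in all 4 knockdown libraries. Over all bins, the Brg1KD libraries lay on the same side as a control at 95.04% to 95.54% of bins. The Ino80KD libraries did so at 96.07% to 96.82%, and the controls shared a side with each other at 96.24%. Brg1KD thus also lay below Ino80KD over all bins, so its lower held share is not shown to be particular to the borders.

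**Figure D1:**
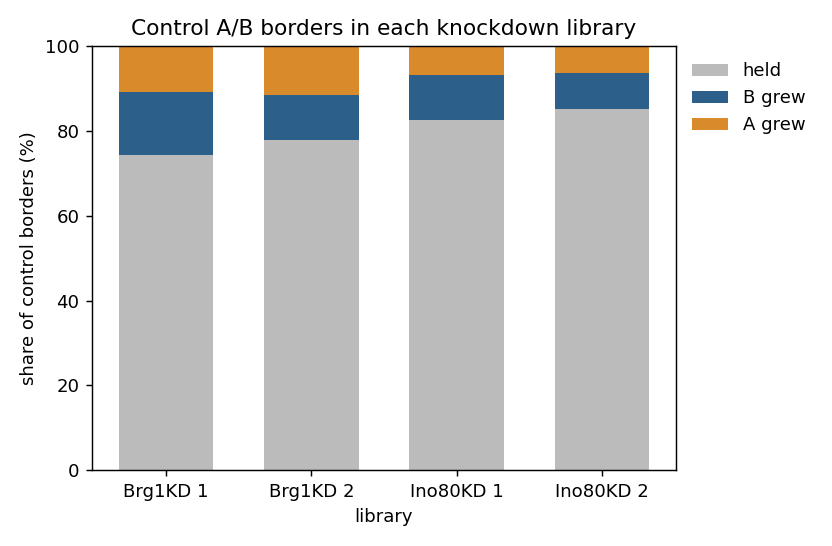
Share of the control borders (vertical axis, %) that held, where B grew or where A grew, in each knockdown library (horizontal axis). The held share was 74.3% and 77.7% in Brg1KD, against 82.5% and 85.2% in Ino80KD; the controls are fixed by the rule and are not drawn.

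Borders also differed between the 2 controls. Control replicate 1 had 1628 borders in all, those shared with the other control included. They held at 62.0% and 62.6% in Brg1KD and at 67.9% and 68.8% in Ino80KD, against 69.6% in Control replicate 2. Control replicate 2 had 1684 borders in all, again with the shared ones. They held at 59.5% and 65.8% in Brg1KD and at 68.2% and 71.8% in Ino80KD, against 67.3% in Control replicate 1. Both Ino80KD libraries lay below the control value in the first set and above it in the second, and the Brg1KD libraries lay below it in both sets. With the borders shared by both libraries of a knockdown as the start, those of Brg1KD (1094) held at 75.4% and 77.4% in the controls, and those of Ino80KD (1196) at 79.2% and 83.1%.

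Borders moved both ways. The B side grew at 167 and 121 borders in Brg1KD and at 121 and 95 in Ino80KD. The A side grew at 123 and 130 in Brg1KD and at 77 and 72 in Ino80KD. These counts include borders whose domain was lost whole, and 1 lost domain can count at both its ends. The A domain was lost at 57 and 35 borders in Brg1KD and at 27 and 22 in Ino80KD. The B domain was lost at 28 and 28 in Brg1KD and at 8 and 8 in Ino80KD. A grew at 11.2% ± 0.431 of borders in Brg1KD and 6.59% ± 0.313 in Ino80KD (SD, n = 2 each), a difference of 4.60 points (4.08 and 5.13 within batches; exact permutation p = 0.333). B grew at 12.7% ± 2.89 in Brg1KD and 9.55% ± 1.63 in Ino80KD (SD, n = 2 each; exact permutation p = 0.667). The surplus of B growth over A growth was 3.89 and -0.796 points in Brg1KD and 3.89 and 2.03 points in Ino80KD. The 2 Brg1KD libraries thus had opposite signs, and no net direction can be given for Brg1KD. Between the controls themselves this surplus was -3.69 or 4.70 points, by which of them was the start.

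Short and long moves differed in the size of the class change. Moves of 1 bin went with a large change of class in that bin. In Brg1KD replicate 1, 60 borders where B grew by 1 bin had a median change of -3.25 classes, and 69 where A grew by 1 bin had one of 3 classes. Over the 4 knockdown libraries these medians ran from -3 to -3.5 classes where B grew and from 2.5 to 3 where A grew. The median control step across these borders was 3 to 3.5 classes, so the change was about the size of the step already there. Moves of 3 or more bins, lost domains included, had a median change of 1 class in every knockdown library, -1 where B grew and 1 where A grew. Their median control step was 2 to 3.5 classes. By their medians the long stretches where B grew were in class 4 in each knockdown library and class 5 in the controls, and those where A grew in class 5 and class 4. A displacement in kb therefore does not measure the size of the change in rank. Of the borders where B grew in both libraries, 15 of 83 moved by 1 bin in both Brg1KD libraries and 22 of 51 in both Ino80KD libraries. The 2 libraries of a knockdown had the same displacement at 106 borders in Brg1KD (75.7% of those changed the same way). In Ino80KD they did so at 70 borders (83.3%). Domains lost in both libraries count among these, and they agree by definition. In Brg1KD such losses lay at 25 borders where B grew and 13 where A grew, and in Ino80KD at 8 and 4.

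**Figure D2:**
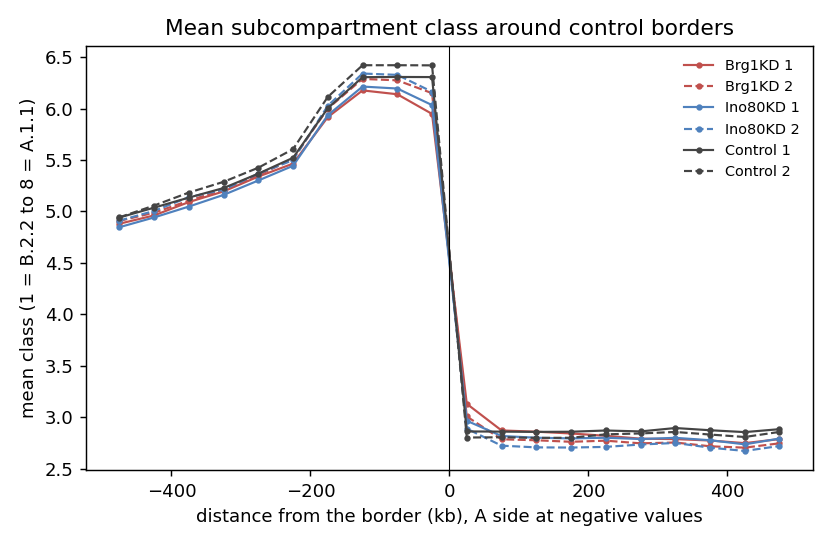
Mean class (vertical axis, 1 to 8) by distance from the border in kb (horizontal axis, A side negative) in each library. In the A-side bin the mean class was 5.95 and 6.15 in Brg1KD, 6.03 and 6.16 in Ino80KD, against 6.31 and 6.42 in the controls, which the rule fixed.

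The B-side bins averaged class 3.13 and 3.01 in Brg1KD and 2.97 and 2.89 in Ino80KD, with 2.86 and 2.80 in the controls. Brg1KD lay 0.142 classes above Ino80KD there (0.165 and 0.119 within batches; exact permutation p = 0.333). The A-side bins differed by -0.0500 classes between Brg1KD and Ino80KD (exact permutation p = 0.667), with overlapping libraries. The rule fixed the Control values, so the distance to them was not tested.

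Sharper borders held more often. At the 26 borders with a step of 1 class, 26.9% and 53.8% held in Brg1KD, and 50.0% held in each Ino80KD library. At the 626 borders with a mean step of 3.5 classes or more, 82.2% and 85.3% held in Brg1KD, and 88.7% and 89.1% in Ino80KD. The step comes from the ranks that chose the borders, so this is a description.

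**Figure D3:**
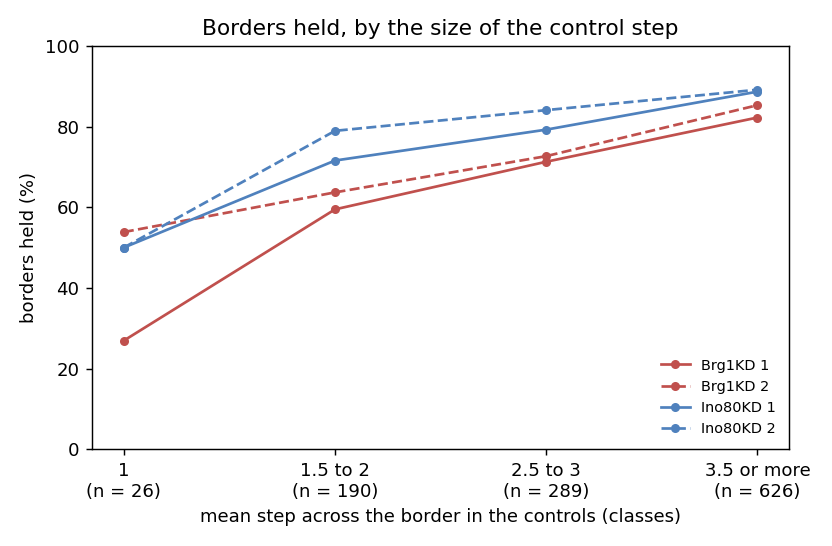
Borders held (vertical axis, %) by the mean control step across the border (horizontal axis, classes), 1 line per knockdown library. The share was higher at each larger step in all 4 libraries, and Brg1KD ended at 82.2% and 85.3%, against 88.7% and 89.1% in Ino80KD.

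The bin-wise limma fit did not give usable calls. It called 134 of the 2261 border bins (5.93%) between Brg1KD and Ino80KD at an adjusted p below 0.05, beside 3.96% of all 47717 bins. Against Control it called 142 border bins (6.28%) in Brg1KD, beside 4.83% of all bins, and 86 (3.80%) in Ino80KD, beside 3.22%. Of these 134 bins, 123 had no spread between replicates, because ranks fall on 8 steps and identical replicates get a residual of 0. On simulated ranks most calls of this fit, and of the same fit with 1 common variance, fell on unchanged bins. Calls and adjusted p-values of single bins therefore support no statement here. Without a model, 83 A-side bins (7.34%) lay in B in both Brg1KD libraries, beside 2.66% of all control A bins. In both, 58 B-side bins (5.13%) lay in A, beside 0.77% of all control B bins. In Ino80KD these were 51 A-side bins (4.51%), beside 1.63%, and 33 B-side bins (2.92%), beside 0.276%. The border bins were chosen by the Control ranks, so nothing was read from these counts.

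The borders that moved furthest were named by a fixed rule, 5 in each direction and knockdown. On chromosome 13 at 14650000, B grew by 500 kb in both Brg1KD and both Ino80KD libraries, over Hecw1 (a ubiquitin ligase), Mrpl32, Psma2 (a proteasome subunit) and AW209491. The stretch was labelled B.1.2 and B.1.1 in Brg1KD and B.1.1 in both Ino80KD libraries, against A.2.2 in both controls. On chromosome 11 at 67850000, B grew by 450 kb in all 4 knockdown libraries over Usp43, Cfap52, Stx8 (a syntaxin of vesicle fusion) and Ntn1 (the guidance cue netrin). This stretch was B.1.1 in all 4 knockdown libraries, against A.2.2 in both controls. On chromosome 1 at 90650000, with Cops8 of the COP9 signalosome, B grew by 350 and 400 kb in Brg1KD and by 350 and 400 kb in Ino80KD.

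Some far moves were seen in Brg1KD with the border held in both Ino80KD libraries. On chromosome 6 at 92950000, B grew by 700 kb in both Brg1KD libraries over Prickle2 and Adamts9 (an extracellular matrix protease). The mean class of the stretch was 3 in both Brg1KD libraries, 4.36 and 5 in Ino80KD and 4.36 and 5 in the controls, so part of it already lay in B in 1 control. On chromosome 18 at 84550000, A grew by 550 kb in both Brg1KD libraries over Tshz1, Zadh2 and Zfp407. The stretch had a mean class of 5 in both Brg1KD libraries and 4 in both Ino80KD libraries, against 4 and 3.82 in the controls. On chromosome 1 at 53000000, A grew by 750 and 350 kb in Brg1KD over a stretch that holds Mstn (myostatin) and Pms1 (a mismatch repair protein). In Brg1KD replicate 1 the B domain was lost whole, so the 750 kb is its length up to the next A domain of the controls. The first 350 kb had a mean class of 5 and 5.43 in Brg1KD and 4.43 in both Ino80KD libraries, against 4 and 4.43 in the controls, so part of it already lay in A in Control replicate 2.

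Other far moves were shared or belonged to Ino80KD. On chromosome 18 at 56750000, beside Lmnb1 (lamin B1), A grew by 300 and 300 kb in Brg1KD and by 250 and 300 kb in Ino80KD over Marchf3 and C330018D20Rik. Lmnb1 itself, on the A side, was A.1.1 in all 6 libraries. On chromosome 19 at 36350000, B grew by 450 kb in both Ino80KD libraries over Pcgf5 (a Polycomb subunit), Hectd2 and Ppp1r3c, and by 0 and 200 kb in Brg1KD. On chromosome 4, a B domain of 1050 kb from 41800001 to 42850000 was lost in both Ino80KD libraries and in Brg1KD replicate 2, while both of its borders held in Brg1KD replicate 1. It was labelled A.1.1 in Ino80KD replicate 1 and A.2.2 in Ino80KD replicate 2. It holds 16 genes, of which Ccl21d, Gm20878, Fam205a4 and Gm13304 come first. Some of them belong to families with near-identical copies, so reads there may not be placed uniquely. That was not tested, and the move is uncertain.

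**Figure D4:**
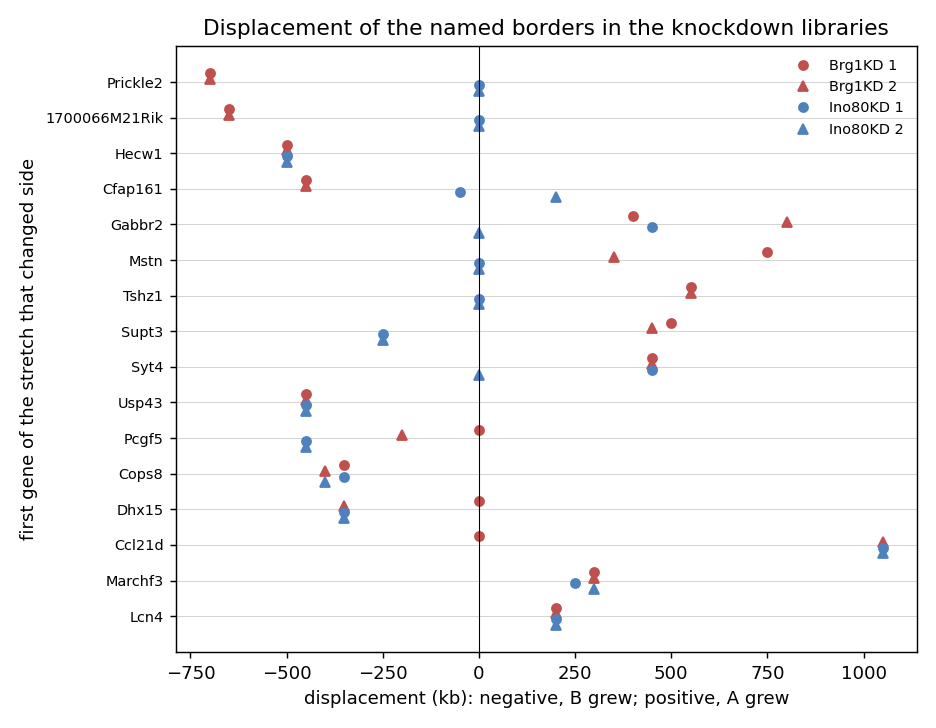
Displacement in kb (horizontal axis, negative where B grew and positive where A grew) of the named borders in each knockdown library, labelled by the first gene of the stretch that changed side. Where a domain was lost, its length is drawn. The border at Hecw1 moved by -500 kb in all 4 libraries, and that at Supt3 moved by 500 and 450 kb in Brg1KD, against -250 kb in both Ino80KD libraries.

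The sharpest borders that held in all 6 libraries were fixed by the same rule. On chromosome 15 at 31600000 the step was 7 classes in both controls and 6 in all 4 knockdown libraries. Cmbl and Cct5 (a subunit of the TRiC chaperonin) lie in its A-side bin by their midpoints, A.1.1 in all 6 libraries, and Atpsckmt in its B-side bin. The start site of Cct5, however, lies 1.85 kb from the border on the B side. On chromosome 9 at 73150000, with Khdc3 and Rsl24d1 on the A side, the step was 7 and 7 classes in Brg1KD and 7 and 6 in Ino80KD, against 7 and 7 in the controls. On chromosome 11 at 71050000 the A-side bin holds Derl2 (endoplasmic reticulum protein export), Mis12 (kinetochore) and 6330403K07Rik.

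Protein-coding genes, placed by midpoint, lay mostly on the A side. The A-side bins held 793 genes (14.0 per Mb), against 413 in B-side bins with a rank in all libraries (7.31 per Mb). Other bins held 16.1 genes per Mb in A and 3.72 per Mb in B. By midpoint the B-side bins thus lay above other B bins and the A-side bins below other A bins. By start site, without chromosome 18, A-side bins held 0.670 per bin, against 0.657 in other A bins. B-side bins held 0.294, against 0.155 in other B bins. By start site the A-side bins thus lay above other A bins. The start sites counted were 726 in A-side bins, beside 793 genes by midpoint. In other A bins they were 10736, beside 13540 genes by midpoint. Start sites and midpoints therefore cover different sets of genes, and not only different placements. Why the order on the A side changed was not tested. Genes crossed 469 borders (41.5%), and the crossing genes had a median length of 113 kb, against 17.5 kb for all protein-coding genes. A longer gene is more likely to cross any point. Borders with a gene in the A-side bin only (369) held at 80.5% and 82.7% in Brg1KD and at 87.3% and 89.4% in Ino80KD. Borders with genes in both bins (208) held at 76.3% and 82.7% in Brg1KD and at 86.5% and 86.1% in Ino80KD. Borders with a gene in the B-side bin only (114) held at 70.2% and 69.3% in Brg1KD and at 73.7% and 80.7% in Ino80KD. Borders with a gene in neither bin (440) held at 69.3% and 73.4% in Brg1KD and at 78.9% and 82.5% in Ino80KD, so those with a gene on the B side only lay below them in 3 of 4 libraries.

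Of the genes in lists for pluripotency, other lineages, chromatin complexes and fibroblasts, 15 lay in border bins. By list the share ran from 0% to 18.2% (2 of 11 trophectoderm genes), beside 5.93% of all protein-coding genes. The lists are small, and these shares were not tested. Of 25 pluripotency genes placed, 4 (16%) lay in border bins, all on the A side of borders that held in all 4 knockdown libraries. Klf4 was in class 8 and 7 in Brg1KD, 8 and 7 in Ino80KD, and 7 and 7 in the controls. Zfp42 (Rex1, a marker of naive pluripotency) was in class 7 in all 6 libraries. Dppa4 and Fbxo15 were in class 7 or 8 in every library. Uchl5 and Actr8 (2 of 14 INO80 subunits) and Trim28 (a corepressor of the heterochromatin list) lay on the A side of borders that held in all 4 knockdown libraries. T, a mesendoderm factor, also lay in an A-side bin. The border at S100a4, a fibroblast marker, moved so that A grew by 1 and 5 bins in Brg1KD and by 11 and 0 bins in Ino80KD. No list gene of the BAF complexes, of CTCF and cohesin, of Polycomb or of the 2-cell-like state lay in a border bin. Smarca4 and Ino80 lie 840 kb and 1276 kb from the nearest border and were A.1.1 in all 6 libraries.

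Pdgfra and Elf5 lie at borders that moved by 1 bin in both Ino80KD libraries and held in both Brg1KD libraries. Pdgfra, whose promoter is printed above, was in class 3 and 3 in Brg1KD and 6 and 6 in Ino80KD, against 3 and 4 in the controls. Its bin thus lay in A in both Ino80KD libraries and in B in the other 4. Elf5 was in class 5 and 5 in Brg1KD and 6 and 6 in Ino80KD, against 6 and 6 in the controls, so its own bin stayed in A while the bin beyond the border changed side in Ino80KD. Both genes were chosen with these values in view. Gata3, another trophectoderm factor, lies at a border that moved by 1 bin in Ino80KD replicate 1 only. By midpoint, Pax3 (neural crest) and Col1a2 (collagen of fibroblasts) were on the B side of borders that held in all 4 knockdown libraries. The border runs through Pax3, however. The midpoint of Pax3 lay 0.799 kb from the border, and 49.2% of its body lay in A.

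Loop anchors were most frequent close to the borders. Anchors are 10 kb windows, listed once for each group. The A-side bins held 0.579 anchors per bin in the Brg1KD list, 0.541 in the Ino80KD list and 0.566 in the Control list. The next bin inside A held 0.303, 0.288 and 0.304. The B-side bins held 0.386, 0.358 and 0.381, and the next bin inside B 0.164, 0.143 and 0.160. In steps of 10 kb the highest value lay 10 to 20 kb inside A in each list, with 164 anchors in the Brg1KD list, 150 in the Ino80KD list and 161 in the Control list. Loops and ranks come from the same contact maps.

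**Figure D5:**
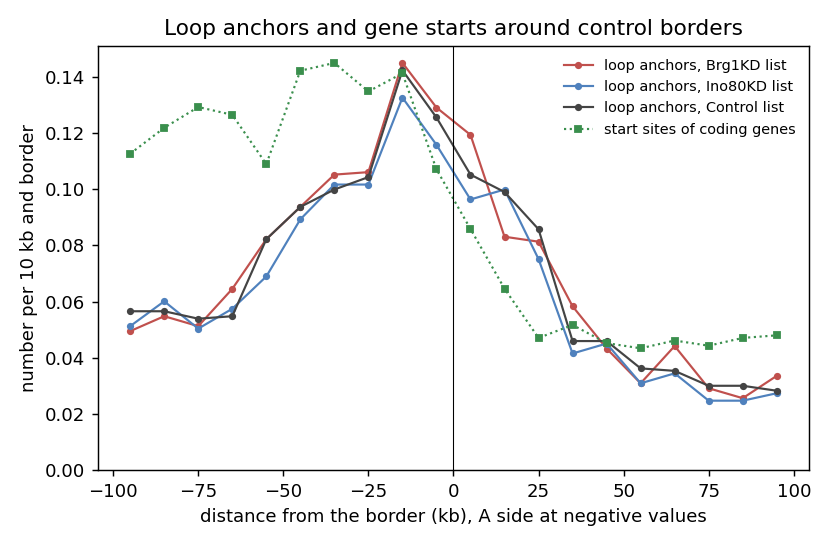
Loop anchors of the 3 lists and start sites of coding genes (vertical axis, number per 10 kb and border) by distance from the border in kb (horizontal axis, A side negative). Anchors reached 0.145 in the Brg1KD list and 0.133 in the Ino80KD list, against 0.142 in the Control list, at 15 kb inside A.

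The share found again of loops with an anchor in a border bin lay within a few points of that of other loops. The difference was not tested. Of 1166 control loops with an anchor in a border bin, 43.4% (exact 95% interval 40.5 to 46.3) had the same anchors in the Brg1KD list, beside 46.6% of the other control loops. In the Ino80KD list it was 46.4% (43.5 to 49.3), beside 47.0%. With anchors allowed to differ by 20 kb, the shares at borders were 80.7% in Brg1KD, beside 79.5% of the other control loops, and 79.2% in Ino80KD, beside 77.3%. Loops with an anchor in a border bin thus lay below the others at exact anchors and above them at 20 kb. The 699 control loops that spanned a border lay below those that spanned none at both settings, also without a test. At exact anchors 41.8% were in the Brg1KD list, beside 46.5%, and 41.2% in the Ino80KD list, beside 47.7%. At 20 kb it was 75.5% in Brg1KD, beside 80.3%, and 76.7% in Ino80KD, beside 77.8%. With 1 list for each group there is no replicate check, and intervals cover counting error only. A control loop that joined the 2 bins of 1 border, on chromosome 6 from 137760001 to 137850000, was in neither knockdown list, also within 20 kb. A control loop of 720 kb from the Pdgfra bin was in the Brg1KD list and, within 20 kb, in the Ino80KD list.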

How the data were processed

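Hi-C ranks and loops of 6 E14 libraries were used. The authors deposited, for each library, subcompartment segments that carry a label and a score (its rank among 8 ordered labels). They also deposited 1 loop list for each group, which gives anchor positions and was taken as pooled over both libraries. The submitters' processing notes name the mm10 build and the tools bedtools, HOMER, Juicer 2.0, SAMtools and BWA, without their roles. The callers and thresholds are not given in the sources used here, and depth is unknown.

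Segments were cut into 50 kb bins, of which 47717 had a rank in all 6 libraries. All ranked bins lie on autosomes. At each control border the nearest border of the same orientation was traced in each library. It was held at the same position. B grew where it lay inside the former A side or the A domain was lost, and A grew in the opposite case. Tracing was checked on made-up chromosomes. Brg1KD and Ino80KD, which the rule did not use, were compared by exact two-sided permutation of libraries. Genes were placed by midpoint with RefSeq GRCm38.p6. Promoters of chromosome 18 were not used here.

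Ranks of all bins were also fitted with limma 3.58.1 in R 4.3.3 (lmFit, eBayes, Benjamini-Hochberg at 0.05). Tested on simulated data with known changes, this fit and its common-variance form mostly called unchanged bins. Of all 47717 bins, 18941 have no residual spread, and 99.3% of the bins called between Brg1KD and Ino80KD are among them. The counts are printed because the fit was planned, and nothing rests on them.

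The labels name the batch, which pairs the libraries. Deviations from the group means correlated within batches with r = 0.0984 (Brg1KD and Control), 0.102 (Ino80KD and Control) and 0.0885 (Brg1KD and Ino80KD). Members, gene lists and tests were chosen with earlier results of these data known. Named borders were the 5 of largest mean displacement in each direction and knockdown that moved in both libraries, with up to 4 genes each, and the 5 sharpest that held in all 6. Other named genes were up to 4 members of each list in border bins, Smarca4 and Ino80, and control loops at these genes or joining the 2 bins of 1 border. Python 3.11.15 with pandas 2.3.3 and scipy 1.17.1 was used.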

Additional observations from a re-analysis of the deposited data

Results flagged for a closer look

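At the border on chromosome 17 at 45150000, beside Supt3, the knockdowns moved in opposite directions. A grew by 500 and 450 kb in Brg1KD, and B grew by 250 kb in both Ino80KD libraries. The mean displacements differ by 725 kb (Brg1KD minus Ino80KD). The difference was not tested. The stretch of 450 kb that changed side in Brg1KD was A.2.2 in both Brg1KD libraries and B.1.1 in both Ino80KD libraries, against B.1.1 in both controls, which is 1 class.

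The bin of Elf5 was lower in Brg1KD than in Ino80KD by 1 class (-1, Brg1KD minus Ino80KD) with limma's adjusted p = 9.8e-08. All 6 libraries of this bin agree within their groups, so its residual spread is 0 and this p has no meaning as a measure of error. With 1 common variance for all bins, in place of limma's own, a normal test gave an adjusted p of 0.269. That form also mostly called unchanged bins on simulated ranks.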

How the results depend on the processing

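The lower held share in Brg1KD than in Ino80KD kept its sign under every alternative run. It ran from -6.08 points (all borders of Control replicate 1) to -8.16 (within batch 1), and from -9.53 to -6.15 with 1 knockdown library left out. With the replicate number as a replicate block the paired difference was -7.84 points with an exact p of 0.5, the smallest that 2 pairs allow. The held share depends on its definition. With moves of 1 bin counted as held it was 86.0% in Brg1KD and 92.8% in Ino80KD. With the borders of 1 control it was 62.3% and 62.7% in Brg1KD and 68.4% and 70.0% in Ino80KD. Leaving out a library gave 74.3 to 77.7% in Brg1KD and 82.5 to 85.2% in Ino80KD.

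The net movement of Brg1KD, 1.55 points, was -0.0436 with lost domains left out, -0.796 within batch 2, and 3.89 to -0.796 with 1 library left out, so it has no settled sign. That of Ino80KD, 2.96 points, was 7.07 with all borders of Control replicate 2 and 1.5 with lost domains left out. With 1 library left out it was 2.03 to 3.89. The cause was not tested.

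Limma counts in border bins were unstable. For Brg1KD against Control, 142 became 141 with the replicate block, 237 with a common variance, 353 by non-overlap and 346 to 458 with 1 library left out. For Ino80KD against Control, 86 became 87, 96, 199 and 145 to 570. For Brg1KD against Ino80KD, 134 became 128, 129, 283 and 258 to 343. Loop shares with anchors within 10 kb and 20 kb were 77.8% and 80.7% for Brg1KD and 76.0% and 79.2% for Ino80KD. The A-side share of border genes, 65.7%, was 62.7% with every bin a gene overlaps and 55.5% with all annotated genes. Unknown depth limits every rank.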
